A study of Rattus norvegicus with 18 samples.

Results

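Chemokines are small secreted proteins that steer leukocytes through tissue by binding G protein-coupled receptors on the cell surface. They are classed by the cysteines near the start of the protein into CC, CXC and CX3C ligands, and each class has its own receptors, which signal through Gi proteins, phosphoinositide 3-kinase and small GTPases to move the cell. Atypical chemokine receptors bind the same ligands without this signal and take them up, carry them or hold them on the vessel wall. In injured skeletal muscle chemokines draw in monocytes, neutrophils and lymphocytes, and in resting tissue a few of them keep stem cells and lymphocytes in place.

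The genes described here are these ligands and receptors, chosen by symbol alone. They are 48 of the 30560 entries of the count table of a rat muscle series: 51 entries carried a symbol of the CC, CXC, CX3C or atypical receptor families, and 3 of them, Ccl2, Ccl7 and a further receptor, were left out. By role the 48 genes were sorted into 30 ligands and 18 receptors. Family members with no entry under their symbol, such as Ccr1, Ccl6 and Ackr4, were not analysed here. The 3 reference genes given with the gene set, Cxcl12, Cxcl16 and Ccr2, were detected in each of the 18 libraries. They belong to the set by symbol, so their detection does not test its label.

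RNA was taken from frozen sections of the tibialis anterior, the front shin muscle, built largely of fast fibres. The 9-month groups were p16-null DMD with 6 libraries, DMD with 3 and wild type (WT) with 3. WT muscle was also profiled at 18 months and at 3 months, with 3 libraries for each age. DMD rats are a model of Duchenne muscular dystrophy, which follows from loss of dystrophin, and p16 is a cell cycle inhibitor made from Cdkn2a that accumulates in senescent cells. Both dystrophic groups carried the DMD genotype and all other groups were WT. The labels name the genotypes and ages but do not describe the edits, a promoter or cell type that drives them, the strain or the sex. Only the sample titles tell the libraries of a group apart, so the p-values below measure the spread between libraries, which may be technical in part.

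Dmd, the dystrophin gene, ran from 30.9 to 54.1 CPM with a median of 41.9 in p16-null DMD muscle and stood at 31.4, 44.3 and 34.9 CPM in DMD muscle and 114, 139.5 and 167 CPM in WT muscle at 9 months, so the dystrophic libraries lay below each WT library. Cdkn2a ran from 10.1 to 15.3 CPM with a median of 12 in p16-null DMD muscle and stood at 10.7, 19.4 and 12.7 CPM in DMD muscle, against 0, 0.135 and 0.184 CPM in WT muscle. Counts of Cdkn2a per gene cover p16 and Arf alike, so they cannot check the p16-null label. CPM stands for counts scaled to library size with TMM factors over the 18 libraries, which held 9607819 to 21992631 estimated counts each. The 48 genes made up 0.0897 to 0.129% of all counts per library in p16-null DMD muscle, 0.0895 to 0.14% in DMD muscle and 0.0448 to 0.0472% in WT muscle at 9 months, and 0.0573 to 0.0621% at 18 months and 0.051 to 0.0593% at 3 months. Of the 48 genes 26 had a count in each library, and 1, the gut chemokine Ccl25, had none in 18 libraries. In bulk muscle a gene that is lower because fewer cells of a type are present and one that is lower because each cell holds less RNA cannot be told apart, and the same holds for a gene that is higher.

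Levels can be compared between genes on the TPM scale, which divides by transcript length. A few homeostatic ligands made up most of the chemokine RNA. In p16-null DMD muscle Cxcl14, Ccl21 and Cxcl12 came first with mean levels of 426.7, 268.3 and 177 TPM and took 61.4% of a summed level of 1421 TPM over the 48 genes. In DMD muscle the same genes led with 473.3, 291.2 and 204.3 TPM and took 59.8% of 1619 TPM. In WT muscle at 9 months Cxcl14, Cxcl12 and the scavenger receptor gene Ackr3 led with 118.6, 85.04 and 47.29 TPM, and took 67.0% of 374.6 TPM. Cxcl9 and Ccl21 came next there with 33.65 and 19.33 TPM. In WT muscle at 18 months Cxcl14, Cxcl12 and Cxcl9 took 65.1% of 644.1 TPM, and at 3 months Cxcl14, Cxcl12 and Ackr3 took 65.6% of 459.9 TPM. At least 1 TPM was reached by 34 of the 48 genes in p16-null DMD muscle, 35 in DMD muscle, 23 in WT muscle at 9 months, 27 at 18 months and 18 at 3 months.

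Dystrophic muscle was first set against WT muscle of the same age to see which chemokines mark the disease. Most measured chemokine ligands were higher in dystrophic muscle. Of the receptors tested, 7 of 14 rose in p16-null DMD and 6 of 14 in DMD muscle. They included Ccr2 of inflammatory monocytes, Cx3cr1 of monocytes and macrophages, and Cxcr3 of T helper 1 and NK cells. Other receptors found on T cells, Cxcr6, Ccr7, Ccr6 and Cxcr4, did not pass. The homeostatic ligand Cxcl12 and its scavenger Ackr3 stood at about the WT level on the count scale, and the gut-homing receptor Ccr9 fell. In p16-null DMD against WT muscle 20 of the 35 genes tested rose and 1 fell, with a median log2 fold change of 1.25 against 0.11 over all 14801 genes tested, of which 27.5% rose and 22.7% fell. In DMD against WT muscle 20 of 35 rose and 1 fell as well, with a median of 1.99 against 0.11 over all genes, of which 26.4% rose and 21.8% fell. A call is an adjusted p under 0.05 by edgeR's quasi-likelihood test with Benjamini-Hochberg adjustment over all genes tested. Both comparisons use the same 3 WT libraries, so they are given side by side and their likeness is no separate result. The other 13 of the 48 genes had too few counts to test.

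**Figure D1:**
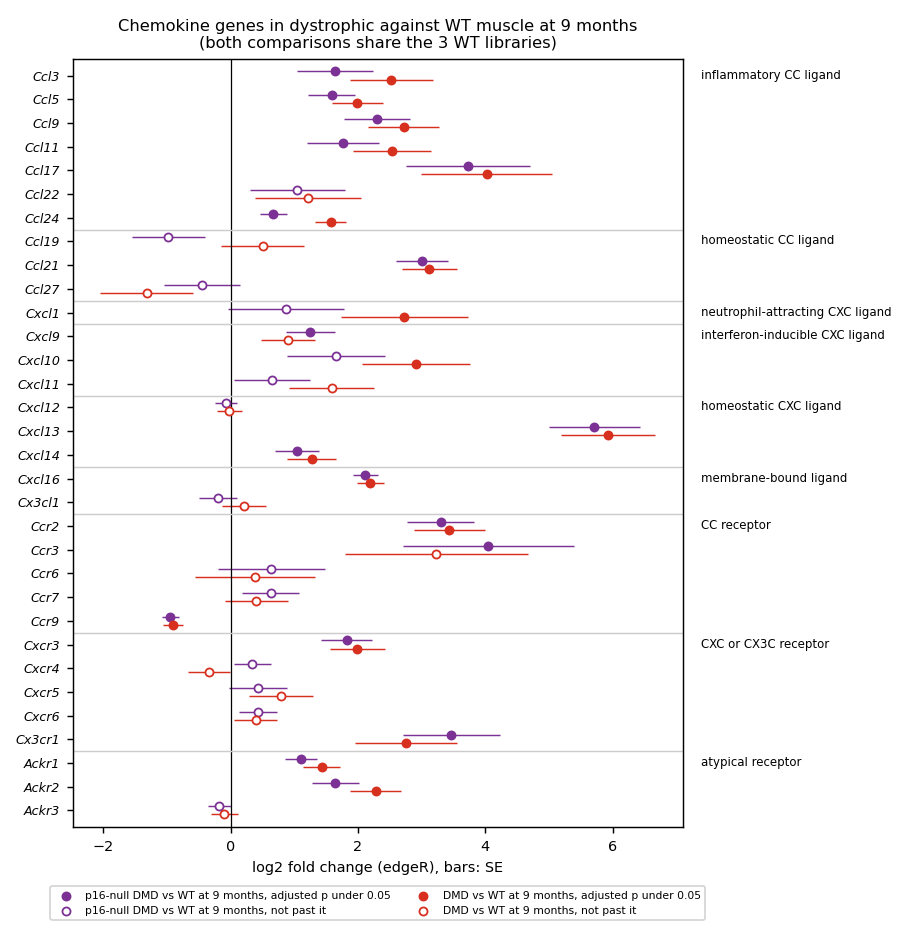
Log2 fold changes (points) with their SE (bars) on the x axis for chemokine genes tested at 9 months, p16-null DMD against WT in purple and DMD against WT in red, grouped by role; filled points passed an adjusted p of 0.05. Ccl4 and Ccl12 are left out because the WT libraries held 0 counts of them. Most ligands lie right of 0 in both comparisons, Ccr9 lies left of it at -0.95 and -0.91, and Cxcl12 and Ackr3 lie close to it.

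Most inflammatory CC ligands rose in dystrophic muscle. Of the 12 with an entry, 9 could be tested, and 8 of these rose both in p16-null DMD and in DMD muscle against WT, with median log2 fold changes of 1.76 and 2.54. Ccl24, an eotaxin that attracts eosinophils, ran from 14.3 to 30.6 CPM with a median of 18 in p16-null DMD muscle and stood at 33.7, 40.3 and 37.7 CPM in DMD muscle, against 12.8, 12 and 13 CPM in WT muscle. The 3 groups did not overlap: DMD libraries were highest and p16-null DMD libraries lay between them and WT. Ccl24 rose by 0.67 ± 0.21 in p16-null DMD muscle (log2 fold change ± SE, adjusted p = 0.0171, or 0.0596 without WT replicate 2) and by 1.57 ± 0.24 in DMD muscle (adjusted p = 9.93e-05). Ccl5, which attracts T cells and monocytes, ran from 2.21 to 4.01 CPM with a median of 3.72 in p16-null DMD muscle and stood at 4.34, 3.04 and 6.31 CPM in DMD and 0.869, 1.62 and 1.01 CPM in WT muscle. Neither dystrophic group overlapped with WT, and Ccl5 rose by 1.59 ± 0.37 (adjusted p = 0.00249) and 1.99 ± 0.41 (adjusted p = 0.000977) in p16-null DMD and in DMD muscle.

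Ccl11, the other eotaxin measured, ran from 1.4 to 6.8 CPM with a median of 3.66 in p16-null DMD muscle and stood at 9.46, 3.84 and 6.43 CPM in DMD and 1.04, 0.405 and 1.84 CPM in WT muscle. The DMD libraries lay above each WT library, whereas the lowest p16-null DMD library lay within the WT range. Ccl11 rose by 1.76 ± 0.57 in p16-null DMD muscle (adjusted p = 0.0176) and by 2.54 ± 0.62 in DMD muscle (adjusted p = 0.00352). The p16-null DMD call on Ccl11 needed WT replicates 1 and 2, with adjusted p = 0.0614 without the first of them and 0.0765 without the other. Ccl9, a rodent CC chemokine that in the mouse binds Ccr1, ran from 1.92 to 5.23 CPM with a median of 3.2 in p16-null DMD muscle and stood at 5.26, 5.07 and 4.01 CPM in DMD and 0.261, 1.62 and 0.46 CPM in WT muscle. Both dystrophic groups lay above WT, and Ccl9 rose by 2.29 ± 0.52 in p16-null DMD muscle (adjusted p = 0.00197) and 2.72 ± 0.56 in DMD muscle (adjusted p = 0.00105). Without WT replicate 2, which held the most Ccl9 of the WT libraries, the log2 fold changes were 3.29 and 3.72.

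Ccl3 and Ccl4, inflammatory ligands made by activated macrophages and T cells, were low in dystrophic muscle and lower still in WT muscle. Ccl3 ran from 0.91 to 1.79 CPM with a median of 1.2 in p16-null DMD muscle and stood at 1.99, 2.56 and 2.68 CPM in DMD and 0.609, 0 and 0.551 CPM in WT muscle, with no overlap among the 3 groups. It rose by 1.64 ± 0.60 in p16-null DMD muscle (adjusted p = 0.0333) and by 2.52 ± 0.65 in DMD muscle (adjusted p = 0.00511). The p16-null DMD call on Ccl3 was lost without p16-null DMD replicate 1 (adjusted p = 0.0514) or 4 (0.057), without WT replicate 2 (0.0809) or 3 (0.0508), and when WT and p16-null DMD alone were fitted (0.0525). Ccl4 had 0 counts in the WT libraries, 0.26 to 1.16 CPM (median 0.822) in p16-null DMD and 0.213, 0.854 and 1.78 CPM in DMD muscle. Against a floor of 3 counts over the WT group it was at least 6.92-fold higher in p16-null DMD muscle (adjusted p = 0.00473) and at least 9.62-fold higher in DMD muscle (adjusted p = 0.00377).

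Ccl12, which in the mouse is a monocyte attractant acting through Ccr2, was also at 0 counts in WT muscle, against 0.325 to 2.83 CPM (median 0.742) in p16-null DMD and 0.853, 4.96 and 7.71 CPM in DMD muscle. DMD replicate 1 lay within the p16-null DMD range and the other DMD libraries above it. Ccl12 was at least 11.8-fold higher in p16-null DMD (113 counts, adjusted p = 0.00525) and at least 46.3-fold higher in DMD muscle (226 counts, adjusted p = 0.000621). These bounds rest most on p16-null DMD replicate 4 and on DMD replicate 3, the libraries with the most Ccl12. Ccl17, a ligand of Ccr4 on T helper and regulatory T cells, ran from 0.545 to 2.4 CPM with a median of 1.49 in p16-null DMD muscle and stood at 0.64, 2.29 and 2.68 CPM in DMD and 0, 0.405 and 0 CPM in WT muscle. With 3 counts over the WT group, the ratio to WT was 15.1 (5.06 to 74.1) in p16-null DMD and 19.2 (6.39 to 95) in DMD muscle (95% counting intervals, adjusted p = 0.0052 and 0.00466). Ccl22, the other Ccr4 ligand, was at 1.05 ± 0.75 in p16-null DMD muscle (adjusted p = 0.262) and 1.22 ± 0.83 in DMD muscle (adjusted p = 0.245). WT replicate 1 held 1.91 CPM of Ccl22, well above the 0.405 and 0.0919 CPM of the others, and without that library Ccl22 passed in both comparisons (log2 fold change 2.87, adjusted p = 0.0259 in p16-null DMD, and 3.05, adjusted p = 0.0249 in DMD).

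Among the homeostatic CC ligands 1 of 3 tested rose. Ccl21, made by lymphatic endothelium and the stroma of lymphoid organs to guide Ccr7-bearing T cells and dendritic cells, ran from 54 to 164 CPM with a median of 81.9 in p16-null DMD muscle and stood at 133, 69.5 and 112 CPM in DMD and 12.3, 16.2 and 8.18 CPM in WT muscle. Each dystrophic library lay above each WT library, and Ccl21 rose by 3.01 ± 0.41 in p16-null DMD muscle (adjusted p = 2.78e-05) and by 3.12 ± 0.43 in DMD muscle (adjusted p = 4.36e-05). The summed level of 4 lymphatic endothelium markers moved with it, at 59.12 to 92.46 TPM in p16-null DMD, 88.49 to 106.7 TPM in DMD and 11.94 to 17.65 TPM in WT muscle, with none of the 4 at 0 in any group. Its part in the Ccl21 result was not tested. Ccl19, the other Ccr7 ligand, stood at -0.98 ± 0.58 in p16-null DMD muscle (adjusted p = 0.175) and 0.50 ± 0.65 in DMD muscle (adjusted p = 0.553), and the receptor gene Ccr7 at 0.63 ± 0.44 (adjusted p = 0.255) and 0.40 ± 0.50 (adjusted p = 0.532). Ccl27, a skin chemokine, was at -0.45 ± 0.60 in p16-null DMD and -1.32 ± 0.73 in DMD muscle, neither past the threshold (adjusted p = 0.558 and 0.147). The gene Il11ra1 overlaps Ccl27 in the RefSeq annotation with 68.42 CPM in p16-null DMD, 77.17 CPM in DMD and 54.97 CPM in WT muscle, so the low Ccl27 counts are uncertain.

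Cxcl13, the ligand that gathers Cxcr5-bearing B cells into follicles, had the largest log2 fold change among the genes with more than 3 counts over the WT group. It ran from 11.1 to 56.5 CPM with a median of 32.7 in p16-null DMD muscle and stood at 59.6, 16.3 and 41.1 CPM in DMD and 0.696, 0.54 and 0.643 CPM in WT muscle. The dystrophic libraries spread widely but each lay far above the WT libraries. Cxcl13 (ENSRNOG00000024899) rose by 5.71 ± 0.71 in p16-null DMD muscle (adjusted p = 1.48e-05) and by 5.93 ± 0.74 in DMD muscle (adjusted p = 1.96e-05). Its receptor gene Cxcr5 ran from 1.74 to 6.28 CPM with a median of 3.5 in p16-null DMD muscle and stood at 6.9, 3.2 and 4.39 CPM in DMD and 1.83, 4.73 and 2.02 CPM in WT muscle. These groups overlapped, and Cxcr5 did not pass at 0.43 ± 0.45 in p16-null DMD muscle (adjusted p = 0.453) and 0.79 ± 0.51 in DMD muscle (adjusted p = 0.216). The gene Bcl9l overlaps Cxcr5 in the RefSeq annotation with 46.07 CPM in p16-null DMD, 40.2 CPM in DMD and 38.92 CPM in WT muscle. Whether counting used strand is not given, so the low Cxcr5 counts are uncertain. Of 6 B and plasma cell markers Cd79b and Ms4a1 had 0 TPM in the WT libraries, and the summed level was 6.06 to 26.82 TPM in p16-null DMD, 17.63 to 39.85 TPM in DMD and 0.43 to 1.31 TPM in WT muscle. The part of these cells in the Cxcl13 and Cxcr5 values was not tested.

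Cxcl14, a chemokine of connective tissue and epithelia that had the highest TPM among the 48 genes in each group, ran from 21.3 to 72.6 CPM with a median of 37.3 in p16-null DMD muscle and stood at 36, 62.4 and 56.4 CPM in DMD and 29.6, 16.6 and 17.7 CPM in WT muscle. The DMD libraries lay above the WT libraries, while the p16-null DMD range reached into the WT range. Cxcl14 rose by 1.04 ± 0.35 in p16-null DMD muscle (adjusted p = 0.0211) and by 1.27 ± 0.39 in DMD muscle (adjusted p = 0.0134). Without WT replicate 2 or 3 both calls were lost (adjusted p = 0.0949 and 0.0921 in p16-null DMD, 0.0569 and 0.0558 in DMD).

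Cxcl16, a transmembrane chemokine that is also shed and that attracts Cxcr6-bearing T cells, separated the groups with the smallest p of the 35 genes in both comparisons. It ran from 25.8 to 46.7 CPM with a median of 34 in p16-null DMD muscle and stood at 32.2, 35.5 and 45.4 CPM in DMD and 8.87, 8.51 and 7.35 CPM in WT muscle. The dystrophic groups shared a range and lay wholly above WT. Cxcl16 (ENSRNOG00000026647) rose by 2.12 ± 0.19 in p16-null DMD muscle (adjusted p = 1.36e-06) and by 2.20 ± 0.21 in DMD muscle (adjusted p = 3.05e-06). The gene Zmynd15 overlaps it in the RefSeq annotation and had 1.83 CPM in p16-null DMD, 1.95 CPM in DMD and 0.135 CPM in WT muscle, little against the Cxcl16 level. Cx3cl1, fractalkine, the other membrane-bound ligand, ran from 3.91 to 11.1 CPM with a median of 7.83 in p16-null DMD muscle and stood at 11.9, 11.2 and 7.2 CPM in DMD and 8.35, 7.7 and 10.2 CPM in WT muscle. The groups overlapped, and Cx3cl1 did not pass at -0.19 ± 0.30 in p16-null DMD muscle (adjusted p = 0.617) and 0.21 ± 0.34 in DMD muscle (adjusted p = 0.641), whereas its receptor gene Cx3cr1 rose.

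**Figure D2:**
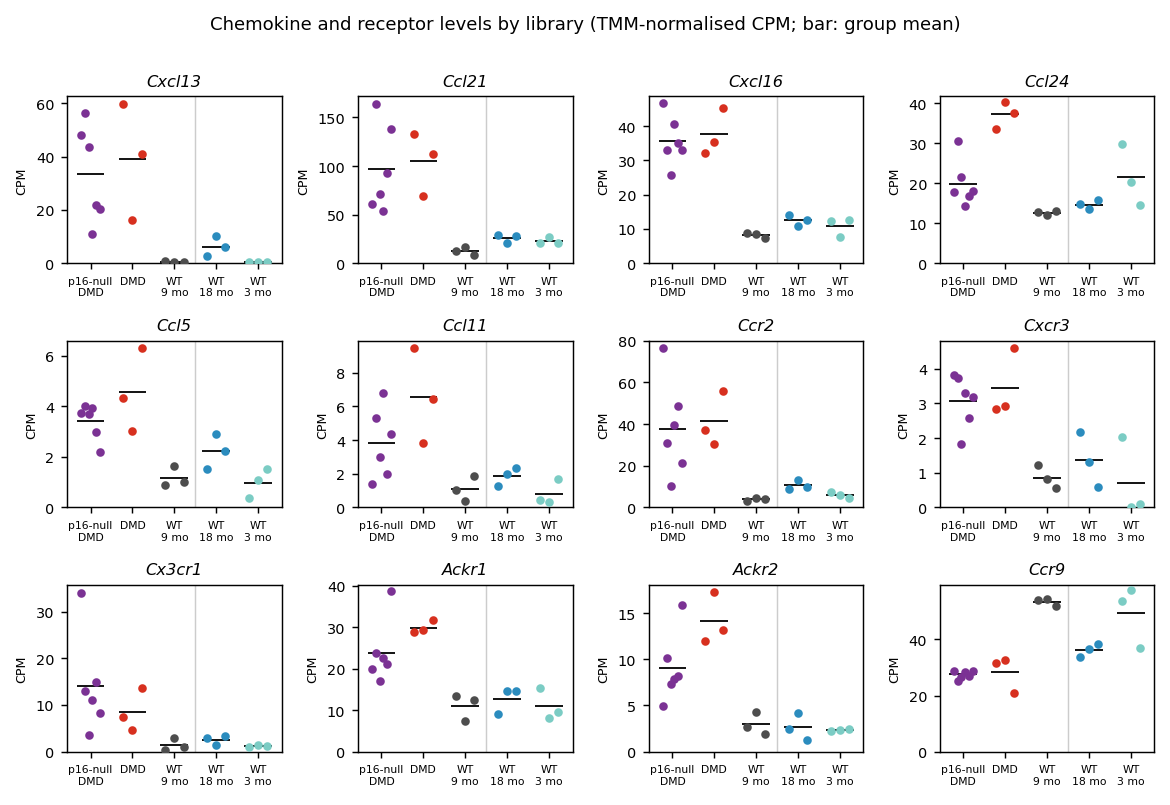
TMM-normalised CPM on the y axis of 12 chemokine ligand and receptor genes in each library (points), by group on the x axis; horizontal bars are group means. The dystrophic libraries of Cxcl13, Ccl21, Cxcl16 and Ccr2 lie above each WT library of 9 months, and those of Ccr9 lie below them.

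The interferon-inducible ligands Cxcl9, Cxcl10 and Cxcl11 attract Cxcr3-bearing T and NK cells, and which of them passed depended on the setting. Cxcl9 ran from 42.7 to 135 CPM with a median of 57.2 in p16-null DMD muscle and stood at 70.8, 32 and 67.5 CPM in DMD and 26.3, 34.8 and 30.5 CPM in WT muscle. Each p16-null DMD library lay above WT, whereas DMD replicate 2 lay within the WT range. Cxcl9 rose by 1.25 ± 0.38 in p16-null DMD muscle (adjusted p = 0.0128), a call lost without WT replicate 1 (0.0573), and stood at 0.90 ± 0.42 in DMD muscle (adjusted p = 0.0882), where it passed when WT and DMD alone were fitted (0.0177) and by library totals (0.00525). Cxcl10 ran from 0.913 to 6.54 CPM with a median of 1.84 in p16-null DMD muscle and stood at 1.42, 4.32 and 14.7 CPM in DMD and 0.782, 0.675 and 1.19 CPM in WT muscle. The DMD libraries spread widely but lay above WT, and the lowest p16-null DMD library lay within the WT range. Cxcl10 stood at 1.65 ± 0.77 in p16-null DMD muscle (adjusted p = 0.0883) and rose by 2.91 ± 0.84 in DMD muscle (adjusted p = 0.0105), which was lost without DMD replicate 3 (log2 fold change 1.69, adjusted p = 0.1). In p16-null DMD muscle Cxcl10 passed when WT and p16-null DMD alone were fitted (adjusted p = 0.0484), with scaling to library totals (0.0208) and in DESeq2 (0.0381). Cxcl11 stood at 0.65 ± 0.60 (adjusted p = 0.387) and 1.59 ± 0.66 (adjusted p = 0.0607), with 0.545 to 2.62 CPM (median 1.22) in p16-null DMD, 1.07, 3.57 and 3.63 CPM in DMD and 1.56, 0.675 and 0.46 CPM in WT muscle. By DESeq2 Cxcl11 passed in DMD muscle (adjusted p = 0.0419). Whether the p16-null DMD and DMD effects on these ligands differ is the comparison of those groups with each other, in which none of the 3 passed (adjusted p from 0.924 to 0.982). The muscle gene Art3 overlaps Cxcl10 and Cxcl11 in the RefSeq annotation with 137.8 CPM in p16-null DMD, 135.9 CPM in DMD and 266.7 CPM in WT muscle, and the strand setting of the counting is not given in the sources used here, so the low counts of these genes are uncertain.

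Neutrophil-attracting CXC ligands were scarce, and 1 of 4 could be tested. Cxcl1 ran from 0.571 to 1.93 CPM with a median of 1.35 in p16-null DMD muscle and stood at 0.142, 8.11 and 5.67 CPM in DMD and 0.869, 0 and 1.1 CPM in WT muscle. DMD replicates 2 and 3 lay above all other libraries of 9 months, and DMD replicate 1 lay within the WT range. Cxcl1 stood at 0.87 ± 0.91 in p16-null DMD muscle (adjusted p = 0.451) and rose by 2.73 ± 1.0 in DMD muscle (adjusted p = 0.0348). That call was lost without DMD replicate 2 (log2 fold change 2.06, adjusted p = 0.141) or 3 (0.0802), without WT replicate 1 (0.0724), 2 (0.0967) or 3 (0.0521), and when WT and DMD alone were fitted (0.0537). Cxcl2, Cxcl3 and Cxcl6 were not tested, with 8, 4 and 8 counts over the p16-null DMD group, 15, 14 and 11 over the DMD group and 0 over the WT group. Ccl20, the ligand of Ccr6, was not tested either but had the same pattern of libraries as Cxcl1, with 0.0831 to 0.358 CPM (median 0.165) in p16-null DMD, 0, 4.06 and 1.34 CPM in DMD and 0 in the WT libraries. It had 19 counts over the p16-null DMD group and 97 over the DMD group, 0 of them in DMD replicate 1. Without a filter on low counts Ccl20 passed in DMD against WT muscle (adjusted p = 0.00386).

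**Figure D3:**
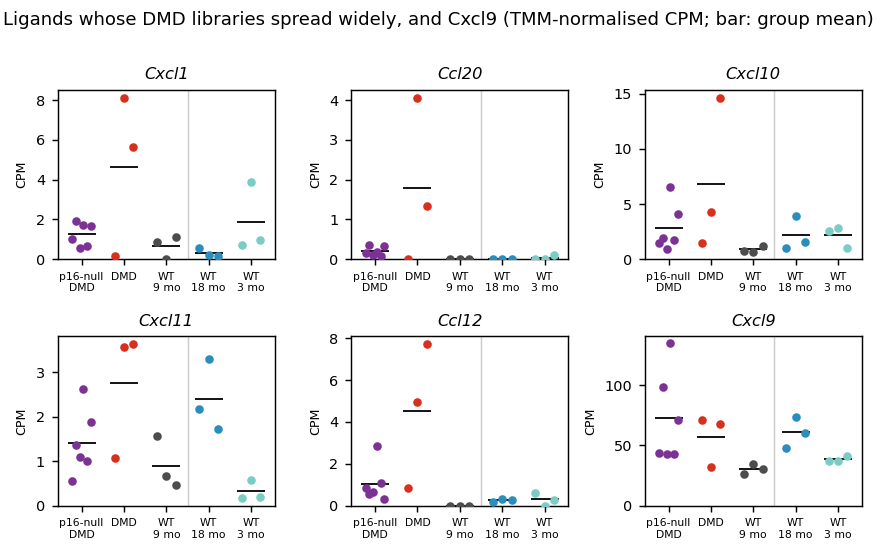
TMM-normalised CPM on the y axis of 5 ligand genes whose DMD libraries spread widely and of Cxcl9, in each library (points), by group on the x axis; horizontal bars are group means. DMD replicate 1, the leftmost DMD point, is low for Cxcl1, Ccl20, Cxcl10, Cxcl11 and Ccl12, and high for Cxcl9.

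DMD replicate 1 was the lowest DMD library for 11 of the 21 tested ligands, Cxcl1, Cxcl10, Cxcl11 and Ccl12 among them, and the highest for 9, Cxcl9 among them. The start regions of 5 ligands of the plot of spread DMD libraries are shown; these genes were chosen after their values were seen. Sequences are from RefSeq (build GRCr8, 5′ to 3′ on the strand of the gene, 250 bases before the transcription start), and capitals mark matches to the kappaB motif, to which NF-kappaB factors bind, on either strand. Ccl12 had no sequence to show.
Cxcl1, minus strand, chr14:17479322-17479571: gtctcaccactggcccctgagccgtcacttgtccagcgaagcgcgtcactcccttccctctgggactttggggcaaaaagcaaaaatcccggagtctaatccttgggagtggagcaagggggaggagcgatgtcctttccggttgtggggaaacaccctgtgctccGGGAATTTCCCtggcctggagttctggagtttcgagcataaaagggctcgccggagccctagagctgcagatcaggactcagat
Ccl20, plus strand, chr9:91836909-91837158: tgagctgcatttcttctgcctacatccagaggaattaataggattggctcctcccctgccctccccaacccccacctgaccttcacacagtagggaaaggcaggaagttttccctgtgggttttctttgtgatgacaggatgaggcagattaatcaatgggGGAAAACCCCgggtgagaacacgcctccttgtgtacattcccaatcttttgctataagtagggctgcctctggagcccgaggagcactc
Cxcl10, plus strand, chr14:15988816-15989065: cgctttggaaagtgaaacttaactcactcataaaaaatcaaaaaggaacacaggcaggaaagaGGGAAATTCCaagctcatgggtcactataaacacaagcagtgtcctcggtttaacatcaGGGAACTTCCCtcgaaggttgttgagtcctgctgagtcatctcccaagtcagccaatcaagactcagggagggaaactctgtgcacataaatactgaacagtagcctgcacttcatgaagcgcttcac
Cxcl11, plus strand, chr14:15973478-15973727: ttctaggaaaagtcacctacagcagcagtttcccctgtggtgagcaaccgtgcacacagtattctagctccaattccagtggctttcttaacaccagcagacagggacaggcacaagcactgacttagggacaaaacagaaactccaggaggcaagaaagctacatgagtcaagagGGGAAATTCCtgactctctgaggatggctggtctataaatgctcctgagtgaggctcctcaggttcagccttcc
Cxcl9, plus strand, chr14:16006916-16007165: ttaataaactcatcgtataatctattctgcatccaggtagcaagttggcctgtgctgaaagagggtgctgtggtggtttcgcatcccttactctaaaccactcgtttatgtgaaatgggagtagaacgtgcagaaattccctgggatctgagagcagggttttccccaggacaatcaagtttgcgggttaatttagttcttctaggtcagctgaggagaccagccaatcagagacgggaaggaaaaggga
The Cxcl1 region held 2 overlapping matches in 1 stretch, Ccl20 and Cxcl11 held 1 match each, Cxcl10 held 3 matches in 2 stretches, and Cxcl9 held 0. None of these matches overlapped with a match to the other motif searched. In windows of 300 bases, which add 50 bases after the start, a kappaB match stood in 8 of the 35 chemokine genes that had a window (Ccl20, Ccl9, Ccr3, Cxcl1, Cxcl10, Cxcl11, Cxcl2 and Cxcl6) and in 7.51% of all 33469 windows. The gamma-activated site TTCNNNGAA, bound by STAT factors, stood in 5 of the 35 genes and in 8.87% of all windows, on either strand. Among ligands not shown, Ccl17 was also lowest in DMD replicate 1 and its window held no kappaB match. Ccl9 had 2 matches, including a match after the start, and was highest in that library, little above DMD replicate 2. The part of these motifs in the pattern of the DMD libraries was not tested. A match says only that these letters are present, and the windows of 13 of the 48 genes were not read.

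Cxcl12, which holds stem cells and lymphocytes in place through Cxcr4 and is cleared by Ackr3, had the highest CPM among the 48 genes. It ran from 252 to 337 CPM with a median of 307 in p16-null DMD muscle and stood at 383, 204 and 334 CPM in DMD and 318, 325 and 296 CPM in WT muscle. These ranges overlapped, and Cxcl12 (ENSRNOG00000013589) did not pass at -0.08 ± 0.17 in p16-null DMD muscle (adjusted p = 0.733) and -0.02 ± 0.20 in DMD muscle (adjusted p = 0.946). On the TPM scale, however, Cxcl12 ran from 153 to 204 TPM with a median of 176 in p16-null DMD muscle and stood at 261, 114 and 238 TPM in DMD and 84.7, 80.6 and 89.8 TPM in WT muscle, where each dystrophic library lay above each WT library. By limma on log2(TPM + 1) it was 1.04 higher in p16-null DMD muscle (adjusted p = 0.000786) and 1.17 higher in DMD muscle (adjusted p = 0.00109), and by library totals 0.53 (adjusted p = 0.0256) and 0.64 (adjusted p = 0.0201). Counts per TPM, which follow the length that RSEM assigned to the gene, were 0.771 ± 0.044 of the WT level at 9 months in p16-null DMD and 0.714 ± 0.024 in DMD muscle (SD, n = 6 and 3). Scaling moved all genes as well: the median log2 fold change over all genes in DMD against WT was 0.11 by TMM and 0.76 by library totals. On log2(TPM + 1) that median was 0.64. In DMD muscle Cxcl12 thus lay below the median gene by library totals and above it on log2(TPM + 1). With Cxcl12 close to 0 by TMM, whether it rose depends on the scale and is not settled by these values.

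Cxcr4 ran from 8.71 to 29.5 CPM with a median of 15 in p16-null DMD muscle and stood at 10.9, 8.0 and 11 CPM in DMD and 11.2, 13.4 and 13.6 CPM in WT muscle. The DMD libraries lay just below the WT libraries and the p16-null DMD libraries spread to both sides. It did not pass at 0.34 ± 0.29 in p16-null DMD muscle (adjusted p = 0.345) and -0.34 ± 0.33 in DMD muscle (adjusted p = 0.416), though in p16-null DMD muscle it did by library totals (0.94, adjusted p = 0.0129). Ackr3 stood at -0.18 ± 0.18 in p16-null DMD muscle (adjusted p = 0.444) and -0.10 ± 0.21 in DMD muscle (adjusted p = 0.726). By library totals Ackr3 was 0.55 higher in DMD muscle (adjusted p = 0.0362), and on log2(TPM + 1) 0.52 higher in p16-null DMD muscle (adjusted p = 0.0248) and 0.58 higher in DMD muscle (adjusted p = 0.0336). These values lay below the medians over all genes, 0.76 by library totals in DMD muscle and 0.64 on log2(TPM + 1) in both groups.

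**Figure D4:**
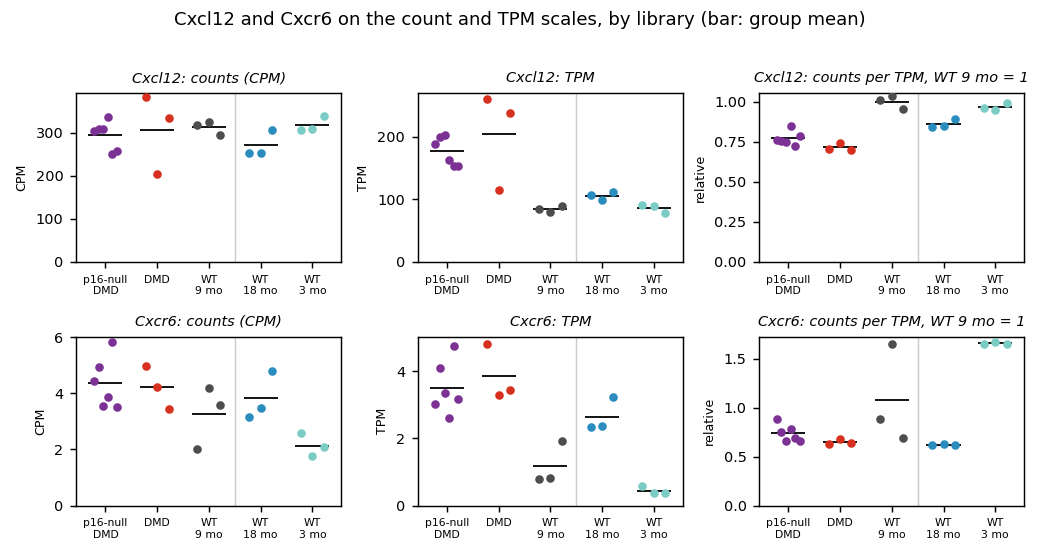
Cxcl12 (top) and Cxcr6 (bottom) in each library (points) as TMM-normalised CPM, as TPM and as counts per TPM relative to the WT mean at 9 months, by group on the x axis; horizontal bars are group means. Cxcl12 overlaps between the groups in CPM, separates dystrophic from WT muscle in TPM, and has fewer counts per TPM in dystrophic muscle.

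Among CC receptors, Ccr2 rose in both dystrophic groups. Ccr2, the receptor of inflammatory monocytes, ran from 10.4 to 76.4 CPM with a median of 35.3 in p16-null DMD muscle and stood at 37.3, 30.5 and 56 CPM in DMD and 3.04, 4.59 and 3.95 CPM in WT muscle. Even the lowest dystrophic library lay above WT, and Ccr2 (ENSRNOG00000063127) rose by 3.30 ± 0.53 in p16-null DMD muscle (adjusted p = 0.000118) and by 3.43 ± 0.56 in DMD muscle (adjusted p = 0.000162). The summed level of 10 macrophage markers, none at 0 in any group, moved with Ccr2, at 2185 to 6698 TPM in p16-null DMD, 3152 to 5502 TPM in DMD and 287.9 to 373.1 TPM in WT muscle, and their part in the result was not tested.

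Ccr3, the eotaxin receptor of eosinophils, was low, with 0.13 to 14.3 CPM (median 1.45) in p16-null DMD, 2.2, 0.427 and 3.25 CPM in DMD and 0.174, 0.135 and 0.276 CPM in WT muscle. A single p16-null DMD library, replicate 1, stood far above the rest. Ccr3 rose by 4.05 ± 1.34 in p16-null DMD muscle (adjusted p = 0.0205), which did not hold with any 1 WT library left out (adjusted p from 0.0601 to 0.0728) and moved to a log2 fold change of 2.71 without p16-null DMD replicate 1, and stood at 3.23 ± 1.43 in DMD muscle (adjusted p = 0.0753). Of the eosinophil markers Prg2 and Epx both were at 0 TPM in WT muscle, and their sum was 0 to 1.07 TPM in p16-null DMD and 0.2 to 1.4 TPM in DMD muscle. Ccr1l1, which overlaps Ccr3 in the RefSeq annotation, had 0.877 CPM in DMD and 0.0869 CPM in WT muscle, so reads of both genes may be mixed. Ccr6, a receptor of T helper 17 cells, was at 0.64 ± 0.84 in p16-null DMD and 0.38 ± 0.94 in DMD muscle (adjusted p = 0.555 and 0.762).

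Ccr9, which guides T cells to the gut through Ccl25, was the 1 gene of the 35 that fell. It ran from 25.3 to 28.9 CPM with a median of 27.7 in p16-null DMD muscle and stood at 31.6, 32.6 and 21 CPM in DMD and 54.2, 54.3 and 51.8 CPM in WT muscle. WT libraries lay tightly together above all dystrophic libraries. On the log2 scale Ccr9 fell by 0.95 ± 0.14 in p16-null DMD muscle (adjusted p = 4.67e-05) and by 0.91 ± 0.16 in DMD muscle (adjusted p = 0.000363). Whether the fall passed depended on the scaling. By library totals Ccr9 stood at -0.34 in p16-null DMD muscle (adjusted p = 0.0405) and -0.27 in DMD muscle (adjusted p = 0.157). On log2(TPM + 1) it stood at -0.17 in p16-null DMD muscle (adjusted p = 0.34) and -0.14 in DMD muscle (adjusted p = 0.507). The medians over all genes were 0.72 and 0.76 by library totals and 0.64 in both groups on log2(TPM + 1), against 0.11 by TMM. Ccr9 thus lay below the median gene on each of these scales. In WT muscle Ccr9 had more counts than any other receptor but Ackr3. On the TPM scale its mean there was 5.31 TPM, below Ackr3, Ackr1 and Cxcr4 at 47.29, 12.69 and 9.07 TPM. A set of 7 T cell markers summed to 1.86 to 3.4 TPM in WT muscle, against 9.4 to 24.32 TPM in p16-null DMD and 17.71 to 43.36 TPM in DMD muscle. The part of T cells in the Ccr9 values was not tested.

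Of the CXC and CX3C receptors Cxcr3 and Cx3cr1 rose. Cxcr3, the receptor of T helper 1 and NK cells for Cxcl9, Cxcl10 and Cxcl11, ran from 1.83 to 3.81 CPM with a median of 3.25 in p16-null DMD muscle and stood at 2.84, 2.93 and 4.59 CPM in DMD and 1.22, 0.81 and 0.551 CPM in WT muscle. The dystrophic libraries lay above WT without overlap, and Cxcr3 rose by 1.82 ± 0.40 in p16-null DMD muscle (adjusted p = 0.0016) and by 1.99 ± 0.44 in DMD muscle (adjusted p = 0.00168). Cx3cr1, the fractalkine receptor of monocytes and resident macrophages, ran from 3.48 to 34.1 CPM with a median of 12 in p16-null DMD muscle and stood at 7.32, 4.59 and 13.7 CPM in DMD and 0.261, 2.97 and 0.919 CPM in WT muscle. Again no dystrophic library reached down to the WT range, and Cx3cr1 rose by 3.46 ± 0.76 in p16-null DMD muscle (adjusted p = 0.00151) and by 2.75 ± 0.80 in DMD muscle (adjusted p = 0.0108), with the DMD call lost once WT replicate 1 was left out (2.21, adjusted p = 0.0524). Without WT replicate 2, the highest WT library for Cx3cr1, the log2 fold changes were 4.57 and 3.86. Cxcr6, the receptor of Cxcl16, ran from 3.51 to 5.82 CPM with a median of 4.16 in p16-null DMD muscle and stood at 4.98, 4.22 and 3.44 CPM in DMD and 2.0, 4.19 and 3.58 CPM in WT muscle. It overlapped with WT and did not pass at 0.43 ± 0.30 in p16-null DMD muscle (adjusted p = 0.248) and 0.39 ± 0.34 in DMD muscle (adjusted p = 0.365), but passed on log2(TPM + 1) at 1.07 in p16-null DMD muscle (adjusted p = 0.000632) and 1.18 in DMD muscle (adjusted p = 0.000991). Cxcr6 counts per TPM varied from 0.62 to 1.66 of the WT level at 9 months between group means, and Fyco1, which overlaps it, had 75.9 CPM in p16-null DMD, 65.42 CPM in DMD and 165.5 CPM in WT muscle, so neither value is settled.

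Among the atypical receptors, Ackr1 and Ackr2 rose. Ackr1, which carries chemokines across the endothelium of venules, ran from 17.1 to 38.7 CPM with a median of 21.8 in p16-null DMD muscle and stood at 28.8, 29.2 and 31.7 CPM in DMD and 13.4, 7.29 and 12.5 CPM in WT muscle. WT libraries lay below both dystrophic groups, and Ackr1 rose by 1.11 ± 0.26 in p16-null DMD muscle (adjusted p = 0.00223) and by 1.43 ± 0.28 in DMD muscle (adjusted p = 0.000805). Ackr2, which takes up and degrades inflammatory CC chemokines, mostly on lymphatic endothelium, ran from 4.98 to 15.9 CPM with a median of 8.04 in p16-null DMD muscle and stood at 11.9, 17.3 and 13.2 CPM in DMD and 2.7, 4.32 and 1.93 CPM in WT muscle. The lowest p16-null DMD library lay just above the highest WT library. Ackr2 rose by 1.64 ± 0.37 in p16-null DMD muscle (adjusted p = 0.0017) and by 2.28 ± 0.40 in DMD muscle (adjusted p = 0.00031). In all, 13 of 21 tested ligands and 7 of 14 tested receptors rose in p16-null DMD muscle, and 14 of 21 ligands and 6 of 14 receptors in DMD muscle.

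Setting p16-null DMD against DMD libraries addresses what the p16-null genotype alters in dystrophic muscle. None of the 35 chemokine genes passed by edgeR, where 0% of all genes tested rose and 0.00676% fell. DESeq2 called 1, Ccl24, and over all genes it called 2 higher and 13 lower. Of the 35 genes 5 had an unadjusted p under 0.05 by edgeR, against 764 of all 14801 genes tested. They were Ccl24, Ccl12, Ccl19 and Cxcl1 on the lower side and Cxcr4 on the higher side. The median log2 fold change of the 35 was -0.23 against 0.02 over all genes. The estimates for ligands were mostly below 0: 19 of 21 ligands and 8 of 14 receptors had a negative log2 fold change, including all 9 inflammatory CC ligands, with medians of -0.41 over ligands and -0.06 over receptors. These genes are not independent of each other, so the counts are a description. The share of all genes with a negative estimate was not counted.

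Ccl24, with the smallest p, stood at -0.90 ± 0.19 in p16-null DMD against DMD muscle (adjusted p = 0.308). All 6 p16-null DMD libraries lay below the 3 DMD libraries, and the highest of them, replicate 2 with 30.6 CPM, came close to the lowest DMD library with 33.7 CPM. By DESeq2 the adjusted p of Ccl24 was 0.036, and by edgeR without p16-null DMD replicate 2 it was 0.0436 (log2 fold change -1.07). Over its other alternatives Ccl24 did not pass. Ccl19 held 0.0571 to 0.831 CPM (median 0.598) in p16-null DMD and 1.85, 1.44 and 1.08 CPM in DMD muscle. Ccl19 and Ccl3 also separated the groups, Ccl19 at -1.48 ± 0.55 (adjusted p = 0.799) and Ccl3 at -0.88 ± 0.48 (adjusted p = 0.938). How many of all genes separated these groups was not counted. Ccl12 at -2.06 ± 0.66 (adjusted p = 0.709) and Cxcl1 at -1.86 ± 0.74 (adjusted p = 0.842) had lower means in p16-null DMD muscle, with DMD replicate 1 among the p16-null DMD values for Ccl12 and below them for Cxcl1. Cxcr4 was at 0.68 ± 0.29 (adjusted p = 0.877).

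Leaving out DMD replicate 1, which held 0 counts of Ccl20, let Ccl20 pass at -3.67 (adjusted p = 0.0321), with 1 to 5 counts in each p16-null DMD library. In that fit 5 of all 15064 genes rose and 80 fell, against 0 and 1 of 14801 in the main fit. Dropping the lowest DMD library for Ccl20 raises its DMD mean, so this call is no support for a difference between the genotypes. Neutrophil markers differed among the same libraries, with a summed level of 27.94 to 384.9 TPM in p16-null DMD muscle and of 138.4, 376.8 and 416.7 TPM in DMD replicates 1, 2 and 3, and their part in these values was not tested. Among the 6 p16-null DMD libraries replicate 1 was the highest for 7 of 14 tested receptors, among them Ccr2, Ccr3 and Cx3cr1, but for 1 of 21 tested ligands. That library also had the highest summed macrophage, monocyte and neutrophil markers of the group, at 6698, 397 and 384.9 TPM. Ccl2 and Ccl7, outside the gene set, stood at -2.04 ± 0.51 (adjusted p = 0.425) and -2.37 ± 0.54 (adjusted p = 0.351) in p16-null DMD against DMD muscle.

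The comparison of WT muscle of 18 with 3 months asked what changes with age in healthy muscle. Cxcl13, the interferon-inducible ligands Cxcl9 and Cxcl11, the macrophage- and dendritic-cell ligand Ccl22 and the lymphocyte receptor Ccr7 were higher at 18 months, and the scavenger receptor Ackr3 was lower. Of 28 chemokine genes tested 7 rose and 1 fell, with a median log2 fold change of 0.74 against 0.00 over all 13487 genes, of which 9.31% rose and 10.1% fell. By role, 5 of 16 tested ligands rose, and 2 of 12 tested receptors rose and 1 fell.

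Cxcl13 stood at 2.63, 10.3 and 5.93 CPM at 18 months and 0.533, 0.487 and 0.568 CPM at 3 months. Each older library lay above the younger ones, and Cxcl13 rose by 3.54 ± 0.55 (adjusted p = 0.000454). WT muscle at 9 months, which is not in this fit, held 0.696, 0.54 and 0.643 CPM. Ccr7 stood at 4.62, 5.09 and 6.01 CPM at 18 months and 0.799, 0.487 and 1.32 CPM at 3 months and rose by 2.58 ± 0.45 (adjusted p = 0.00103). The groups were far apart for Ccr7, although at 9 months WT libraries ranged over both levels, at 4.78, 0.675 and 3.12 CPM. Its ligand genes Ccl19 and Ccl21 did not pass, at 1.22 ± 0.49 (adjusted p = 0.0984) and 0.20 ± 0.17 (adjusted p = 0.475).

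Cxcl11 stood at 2.17, 3.29 and 1.72 CPM at 18 months and 0.177, 0.584 and 0.189 CPM at 3 months and rose by 2.89 ± 0.65 (adjusted p = 0.00599), or by 3.63 without the 3-month replicate 2. Cxcl9 stood at 48, 73.7 and 60.5 CPM at 18 months and 37.1, 37.3 and 40.8 CPM at 3 months and rose by 0.67 ± 0.15 (adjusted p = 0.00684). Neither gene overlapped between the ages, but Cxcl10, the third ligand of Cxcr3, did at -0.01 ± 0.57 (adjusted p = 0.995). In 1 fit of all 18 libraries the Cxcl9 call was lost (adjusted p = 0.284). Ccl22 stood at 1.81, 2.39 and 3.52 CPM at 18 months and 0.444, 0.584 and 0.189 CPM at 3 months and rose by 2.64 ± 0.60 (adjusted p = 0.00629), which was lost without the 18-month replicate 3 (adjusted p = 0.0501). Here too each older library lay above each younger one.

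Ackr3 stood at 54.6, 53.4 and 52.4 CPM at 18 months and 122, 128 and 111 CPM at 3 months. Older libraries lay closely together at less than the lowest younger library, and on the log2 scale Ackr3 fell by 1.16 ± 0.12 (adjusted p = 1.52e-05). Its ligand Cxcl12, with 252, 252 and 307 CPM at 18 months and 307, 308 and 339 CPM at 3 months, was at -0.23 ± 0.12 (adjusted p = 0.227). Ccr2 at 0.84 ± 0.26 (adjusted p = 0.0382) and Cx3cl1 at 0.74 ± 0.23 (adjusted p = 0.0379) rose by less. Ccr2 stood at 8.87, 13 and 9.88 CPM at 18 months and 7.37, 6.03 and 4.35 CPM at 3 months, and Cx3cl1 at 11.9, 12 and 10.3 CPM and 7.63, 5.16 and 7.76 CPM. Both sets of libraries were apart, yet the call on Ccr2 was lost without any 1 of 5 of the 6 libraries (adjusted p from 0.0512 to 0.172) and that on Cx3cl1 without any 1 of 4 (0.0599 to 0.131).

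**Figure D5:**
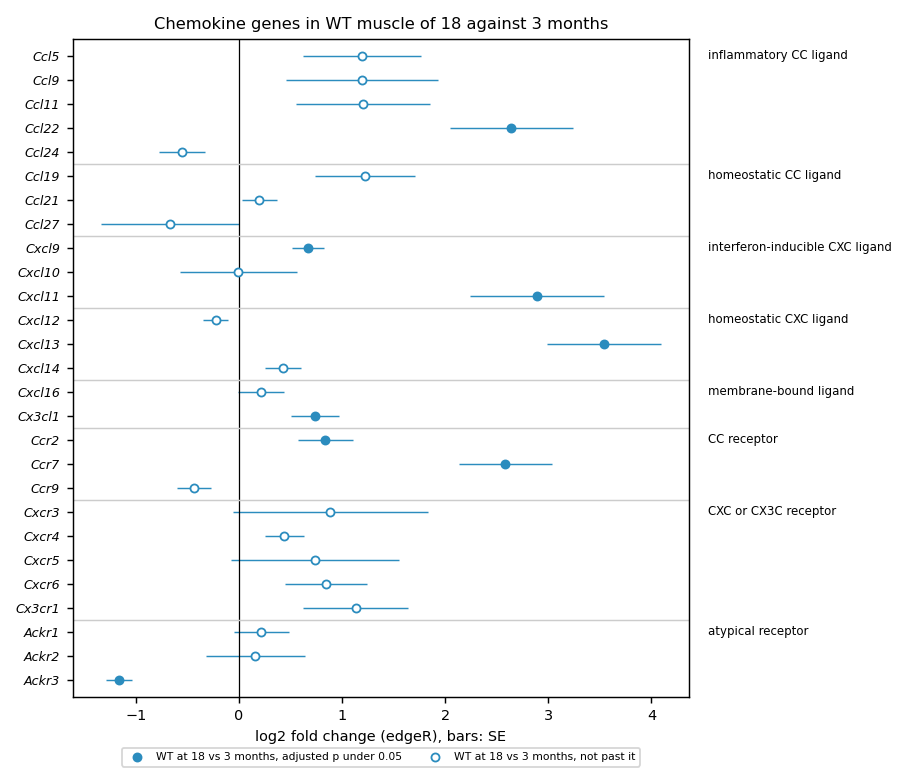
Log2 fold changes (points) with their SE (bars) on the x axis for chemokine genes tested in WT muscle of 18 against 3 months, grouped by role; filled points passed an adjusted p of 0.05. The 7 filled points of genes that rose lie right of 0, led by Cxcl13 at 3.54, and 1, Ackr3, lies left of it at -1.16.

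The other 20 genes of the age comparison did not pass, with log2 fold changes from -0.67 for Ccl27 to 1.22 for Ccl19, and estimates below 0 for Ccl27, Ccl24, Ccr9, Cxcl12 and Cxcl10. The call count depends on scaling, since by library totals 11 genes rose and on log2(TPM + 1) 14 did. Over all genes 1256 rose in the main fit, 2609 by library totals and 3031 on log2(TPM + 1). Marker sums of several leukocytes were higher in the older muscle and others were not: 10 macrophage markers summed to 649.5 to 950.3 TPM at 18 months and 272.8 to 475.1 TPM at 3 months, 5 dendritic cell markers to 45.8 to 73.74 TPM and 18.81 to 40.05 TPM, and 7 T cell markers to 6.89 to 8.49 TPM and 2.66 to 6.11 TPM. In contrast 6 neutrophil markers overlapped between the ages, at 10.66 to 49.24 TPM at 18 months and 5.44 to 24.55 TPM at 3 months, and 5 mast cell markers did at 20.04 to 31.56 TPM and 25.51 to 44.98 TPM. Of the markers in these lists Mpo was at 0 at 18 months, and their part in the age results was not tested.

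Genes that carry the signal from chemokine receptors were taken as a list of 51, of which 47 had an entry and all 47 were tested. In p16-null DMD against WT muscle 37 of 47 rose and 2 fell, and in DMD against WT muscle 36 rose and 1 fell, with median log2 fold changes of 1.19 and 1.20. Over all genes tested 27.5% rose and 22.7% fell in p16-null DMD muscle, and 26.4% rose and 21.8% fell in DMD muscle. The smallest p-values in p16-null DMD muscle belonged to Jak3, a kinase of lymphocytes and myeloid cells, at 2.27 ± 0.28 (adjusted p = 1.43e-05), Adcy7, an adenylyl cyclase, at 2.61 ± 0.34 (adjusted p = 1.84e-05), Pik3r5, a subunit of the receptor-coupled phosphoinositide 3-kinase, at 4.05 ± 0.61 (adjusted p = 7.29e-05), and Vav1, an exchange factor for Rac, at 3.51 ± 0.56 (adjusted p = 0.000113). In DMD muscle they belonged to Jak3 at 2.67 ± 0.31 (adjusted p = 9.89e-06), Adcy7 at 2.58 ± 0.36 (adjusted p = 4.46e-05), the G protein subunit Gnb1 at 0.82 ± 0.13 (adjusted p = 9.45e-05) and the kinase Jak2 at 1.5 ± 0.23 (adjusted p = 0.000101). The adaptor Crkl fell in both, by 0.39 ± 0.13 and 0.51 ± 0.16 on the log2 scale (adjusted p = 0.0248 and 0.0138), and the GTPase Cdc42 fell in p16-null DMD muscle by 0.34 ± 0.12 (adjusted p = 0.0243). No gene of the list passed in p16-null DMD against DMD muscle by edgeR or DESeq2, and 1, Jak2 at -0.54 ± 0.19, had an unadjusted p under 0.05 (adjusted p = 0.774).

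At 18 against 3 months 4 of the 47 signalling genes rose and 3 fell, or 8.51% and 6.38%, with a median of 0.07. Over all genes tested 9.31% rose and 10.1% fell, so these shares were near or below those of all genes and the genes named next are single values. Stat3, a transcription factor downstream of Jak kinases, rose by 0.69 ± 0.12 (adjusted p = 0.000839), Jak2 by 0.74 ± 0.14 (adjusted p = 0.0016), and the myeloid kinase Fgr by 1.40 ± 0.29 (adjusted p = 0.00349), while Pik3cd, a leukocyte phosphoinositide 3-kinase, fell by 0.71 ± 0.17 in log2 units (adjusted p = 0.00776). Many of these genes also act outside chemokine signalling. Of 10 near relatives of the family that the symbols did not match, 9 were tested at 9 months and 5 rose in both dystrophic groups, against the 27.5% (p16-null DMD) and 26.4% (DMD) of all genes that rose. These were the chemerin gene Rarres2 at 1.06 ± 0.21 in p16-null DMD and 1.39 ± 0.23 in DMD muscle (adjusted p = 0.000701 and 0.000217), its receptor gene Cmklr1 at 1.42 ± 0.17 and 1.60 ± 0.18 (adjusted p = 8.48e-06 and 1e-05), the platelet chemokine Pf4 at 1.66 ± 0.24 and 2.10 ± 0.27 (adjusted p = 5.17e-05 and 2.13e-05), the Mif receptor Cd74 at 2.03 ± 0.26 and 2.03 ± 0.29 (adjusted p = 2.02e-05 and 4.7e-05) and the C chemokine Xcl1 at 2.06 ± 0.78 and 2.75 ± 0.83 (adjusted p = 0.0391 and 0.0132). With age Rarres2 fell by 0.55 ± 0.14 in log2 units (adjusted p = 0.0143), and the other 7 tested did not pass.

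The 13 genes not tested at 9 months each had at most 97 counts in a group. Besides Ccl20, Cxcl2, Cxcl3 and Cxcl6 they were the ligands Ccl1, with 33 counts over the p16-null DMD group, 27 over the DMD group and 12 over the WT group, Ccl26, Ccl25, Ccl28 and Cxcl17, and the receptors Ccr4, Ccr8, Ccr10 and Cxcr1. Ccr4, the receptor of Ccl17 and Ccl22, had 9 counts over the p16-null DMD group, 4 over the DMD group and 0 over the WT group. Ccr8, found on regulatory T cells, had 14, 3 and 0 counts and Ccr10 had 28, 13 and 5. A count of 0 over a group allows up to 3 counts. At this depth these genes could not be compared.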

How the data were processed

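RNA of 18 tibialis anterior libraries was prepared from frozen sections with an RNeasy mini kit and a TruSeq library kit, per the labels' protocols. The submitters' processing notes name Trimmomatic, FastQC, STAR 2.7.10b, RSEM 1.3.3 and the build mRatBN7.2; which annotation release was used, and whether counting used strand, is not given in the sources used here. The authors deposited RSEM expected counts per gene, of which 4.5% of values were not whole, and the TPM of the same genes. Entries without a symbol, 7162 of 30560, held 3.64 to 17.6% of the counts of a library and stayed in the fits as genes.

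Expected counts were rounded and tested with edgeR 4.0.16 (limma 3.58.1, R 4.3.3): TMM scaling, filterByExpr and the quasi-likelihood test, in 1 fit of the 12 libraries of 9 months and 1 of the 6 libraries of 18 and 3 months, with Benjamini-Hochberg adjustment over all genes tested. SE is the log2 fold change divided by the square root of F. TPM were used for levels between genes and marker sums, and with limma as an alternative. Libraries held 9607819 to 21992631 counts; floors of 3 counts over a group and 95% intervals cover counting error only. No pair of replicates agreed within sampling noise (chi-square per degree of freedom 12.5 to 83.7). On simulated counts with 14547 to 14569 genes at 9 months, 52%, 33% and 52% of 2-fold changes were recovered in p16-null DMD against DMD, DMD against WT and p16-null DMD against WT, and with 13275 genes 63% in the age comparison. Recovery of 4-fold changes was 91%, 80%, 89% and 94% in the same order. Few genes, none of the lowest counts, were changed in the simulation. In the data 7142 and 7432 of 14801 genes were called in DMD and p16-null DMD against WT muscle. The recovered shares therefore do not give the power of those fits.

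The chemokine genes and all gene lists were chosen with earlier results of these data known. Tested chemokine genes are named or given in a range, those that passed are given by library, the signalling list by up to 4 genes a comparison, and near relatives where they passed. Counts cover all genes tested, some of which are not reported here by name. Alternatives were DESeq2 1.42.0, RLE scaling, library totals, limma on log2(TPM + 1) and log2(TPM + 0.1), no filter, at least 5 CPM in 3 libraries, a replicate block, only the groups compared, all 18 libraries in 1 fit, and each library left out. Promoter windows came from RefSeq (GRCr8) and matched 35 of the 48 genes by symbol.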

Additional observations from a re-analysis of the deposited data

Results flagged for a closer look

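In 35 groups of 6 p16-null DMD libraries, 1 per tested chemokine gene, 4 genes had a library far from the others, judged by the gap to its neighbour against the whole range. Chance alone gives about 1 in 20 groups if values are normally distributed. The CPM were not put on a log scale, all 4 flagged values were the highest of their group, and the genes are not independent. That rate may therefore not hold here, and the 4 are a description. Ccr3 stood at 14.33 CPM in p16-null DMD replicate 1, against 0.1299 to 2.617 CPM in the other p16-null DMD libraries. Cx3cr1 stood at 34.1 CPM in the same library, against 3.482 to 14.88 CPM in the others. Ccl12 stood at 2.835 CPM in p16-null DMD replicate 4, against 0.3248 to 1.08 CPM. Ackr1 stood at 38.72 CPM in p16-null DMD replicate 6, against 17.12 to 23.7 CPM.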

How the results depend on the processing

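The 20 chemokine genes that rose in p16-null DMD against WT muscle became 25 by library totals, 28 on log2(TPM + 1), 29 on log2(TPM + 0.1) and 14 with at least 5 CPM in 3 libraries, and 15 to 21 with 1 library left out. The 20 that rose in DMD against WT muscle became 28, 30, 29 and 14, and 18 to 22 with 1 library left out. Over all 14801 genes, 4073 rose in p16-null DMD against WT muscle in the main fit. By library totals, on log2(TPM + 1) and on log2(TPM + 0.1) these became 8071, 8818 and 9036. In DMD against WT muscle 3914 became 7691, 8058 and 8318. With at least 5 CPM in 3 libraries 3500 and 3429 of 11859 genes rose. Genes that fell, 3359 and 3228 in the main fit, became 1251 and 1240 by library totals. Cxcl12 and Ackr3 lay close to 0 by TMM and above it on other scales. In DMD muscle Cxcl12 stood at 0.64 by library totals, 1.17 on log2(TPM + 1) and 1.18 on log2(TPM + 0.1), and Ackr3 at 0.55, 0.58 and 0.58. The medians over all genes there were 0.76, 0.64 and 0.85. In p16-null DMD muscle Cxcl12 stood at 0.53, 1.04 and 1.05, and Ackr3 at 0.52 on log2(TPM + 1) and 0.53 on log2(TPM + 0.1). The medians over all genes were 0.72, 0.64 and 0.83. The cause of the change with scale was not tested. Ccr9, the 1 chemokine gene that fell, left 0 falls in DMD muscle by library totals and on both TPM scales, and 0 in p16-null DMD muscle on both TPM scales. Against DMD muscle, 1 chemokine gene was lower in p16-null DMD muscle by DESeq2, and 0 to 1 with a library left out. Over all genes 13 were lower by DESeq2, and 80 with DMD replicate 1 left out.

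In the age comparison 7 chemokine genes rose; the count was 11 by library totals, 14 on log2(TPM + 1), 13 on log2(TPM + 0.1), 3 with at least 5 CPM in 3 libraries, 4 in 1 fit of all 18 libraries and 4 to 10 with a library left out. The 1 that fell became 4 without a filter and 1 to 3 with a library left out. Over all genes 1256 rose and 1366 fell with age in the main fit. By library totals 2609 rose and 652 fell, on log2(TPM + 1) 3031 and 429, and on log2(TPM + 0.1) 2938 and 417. In 1 fit of all 18 libraries 874 rose and 868 fell. Signalling genes that rose with age, 4, became 11 by library totals, 12 and 12 on the TPM scales, 2 in 1 fit of all libraries and 3 to 4 with a library left out, and the 3 that fell became 0 by library totals, on both TPM scales and in 1 fit of all libraries, and 1 to 2 with a library left out. Signalling genes that fell in DMD muscle, 1, became 2 by DESeq2, RLE scaling and 1 fit of all libraries, 0 by library totals and on both TPM scales, and 0 to 1 with a library left out. The 2 that fell in p16-null DMD muscle became 0 by library totals, on both TPM scales and under the replicate block, 1 without a filter, and 0 to 2 with a library left out.

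Same-numbered libraries did not clearly deviate together (correlations from -0.222 to 0.13), so there was no sign that the numbers pair them. With groups this small the correlations cannot exclude a shared batch. With the number as a replicate block 16 chemokine genes rose in p16-null DMD and 20 in DMD against WT muscle. Under that block the p16-null DMD calls on Ccl11 (adjusted p = 0.0914), Ccl3 (0.102), Cxcl14 (0.155) and Cxcl9 (0.0634) and the DMD call on Cxcl1 (0.172) were lost, Ccr3 passed in DMD muscle (0.028) and Cxcl14 with age (0.0314). Genes with few counts, such as the CXC ligands of neutrophils, are limited by depth.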
